A study of Mus musculus with 12 samples.

Results

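The 9 genes described here carry or damp the signal of β-adrenergic receptors: the receptor Adrb1, the receptor kinase Adrbk1, the arrestins Arrb1 and Arrb2, the stimulatory G protein gene Gnas, the adenylyl cyclases Adcy7 and Adcy9, the regulator Rgs2 and the kinase subunit Prkaca. They were taken by symbol from the 24445 gene symbols of the count files, and all 9 were listed and passed the filter on low counts that left 14608 genes. Macrophages (Mφ) were enriched with CD45 beads, gated as live CD11b+ single cells and then as CD14+/CD64+ cells, and sorted from the hearts of 12 adult male C57BL6/J mice, with 4 mice and 4 libraries per group. Mice with early concentric hypertrophy (ECH) carried a pump with isoproterenol, which activates β-adrenergic receptors, for 14 days, and mice with heart failure (HF) for 28 days, both at 30 mg/kg/day. Control mice (Ct) had a pump with saline, and how long each carried it is not stated in the sources used here. The agonist reached the whole animal, so the sorted Mφ and every other cell of the heart were exposed together. The comparisons ask how the genes through which a cell responds to such an agonist were expressed in cardiac Mφ at both times of infusion.

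Agonist binding to a β-adrenergic receptor activates the stimulatory G protein, whose α subunit is encoded by Gnas. Adenylyl cyclases then make cAMP, which releases the catalytic subunits of protein kinase A (PKA), such as the product of Prkaca. Under lasting stimulation receptor kinases phosphorylate the occupied receptor, arrestins bind it, and the receptor is uncoupled and internalised, a process called desensitization. The β1 receptor, encoded by Adrb1, is best known from cardiomyocytes.

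Library totals lay between 88466559 and 111180291 counts. All 12 Mφ markers checked, Cd14 and Fcgr1 (CD64) among them, were detected in every library, and their summed level lay between 30178 and 42154 CPM (counts scaled to library size by TMM). Ct library 2 and HF library 1 stood apart: they lacked 127 and 188 genes that had at least 100 counts in each other library of their group, against at most 7 in the other 10 libraries. Library numbers in the labels fall into 2 runs, an inference that neither the labels nor the paper states. The first run holds all Ct libraries with ECH 1 and 2, and the second holds ECH 3 and 4 with all HF libraries. No run holds both Ct and HF libraries, so within a run these groups cannot be compared, and across runs the run and the condition cannot be told apart without the ECH libraries. The sample titles also carry tags that some libraries of a group share: Ct 1 and 2, Ct 3 and 4, ECH 3 and 4, and HF 1 and 2. What these tags denote is not stated, and in ECH they cannot be told apart from the run.

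Per kilobase of exon, the members spanned a wide range of levels. Rgs2, Arrb2, Adrbk1 and Adcy7 averaged 101, 81.1, 55.3 and 45.0 CPM per kb over the 12 libraries. Gnas and Prkaca followed at 25.6 and 18.4 CPM per kb. Arrb1, Adrb1 and Adcy9 were lowest, at 5.97, 3.20 and 2.84 CPM per kb. Adrb1 stood at the 46.5th percentile of the 14484 tested genes with a length and Rgs2 at the 96.8th. Neighbours in this order overlapped over the 12 libraries except at 2 gaps, between Adcy7 (lowest library 38.0 CPM per kb) and Gnas (highest 29.8) and between Prkaca (lowest 11.4) and Arrb1 (highest 7.76). The length used was the union of all annotated exons of a gene, 11186 bases for Gnas and 11175 for Arrb1. Where the expressed transcripts are shorter than that union, the level per kb is too low. The order and the gaps therefore depend on this length.

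**Figure D1:**
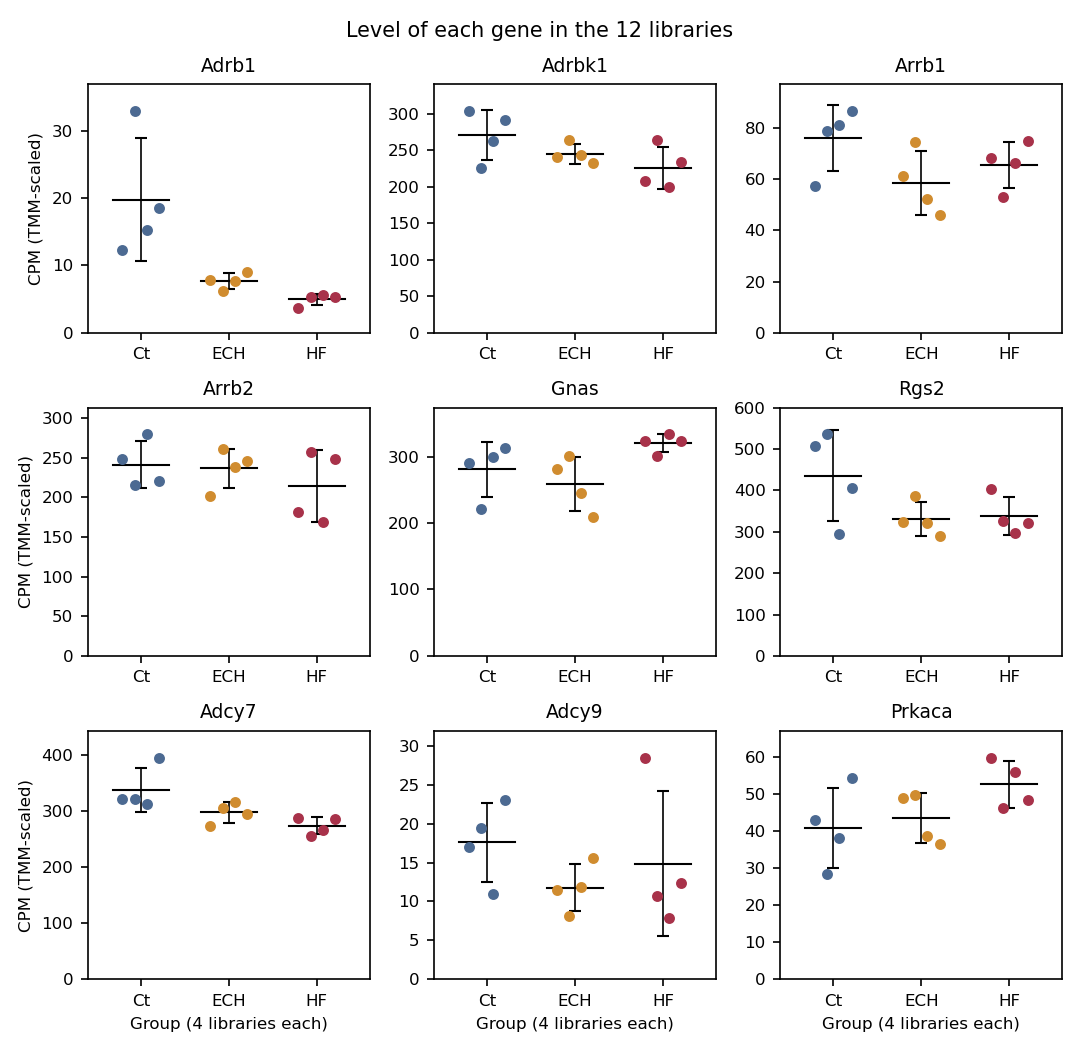
Level of each of the 9 genes in CPM scaled by TMM (vertical axes, each starting at 0) in the Ct, ECH and HF groups (horizontal axes), with 1 point per library in the order of the replicate numbers, the mean as a bar and 1 SD as an error bar. The Adrb1 points of the 3 groups form separate ranges, from 12.3 to 33.0 in Ct, 6.20 to 9.01 in ECH and 3.73 to 5.60 in HF, whereas most other genes overlap between the groups.

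Adrb1, the β1 receptor, was the member that differed most. It lies on the plus strand at chr19:56722199-56733113 (GRCm38, GENCODE M21). Its level in Ct libraries 1 to 4 was 12.3, 33.0, 15.3 and 18.6 CPM. In ECH it was 7.76, 6.20, 7.75 and 9.01 CPM, and in HF 3.73, 5.28, 5.60 and 5.25 CPM. Every ECH library was below every Ct library, and every HF library was below every ECH library. The means were 19.8 ± 9.15 (SD, n = 4), 7.68 ± 1.15 and 4.96 ± 0.836 CPM, from counts of 390 to 2834 per library. HF was 3.98-fold below Ct (log2 -1.99 ± 0.31 SE, FDR = 0.0159, the adjusted p of edgeR's quasi-likelihood test over 14608 genes). With ECH at 2.58-fold below Ct (log2 -1.37 ± 0.30, FDR = 0.0732) and HF at 1.55-fold below ECH (log2 -0.63 ± 0.30, FDR = 0.635), neither of those differences passed the threshold of 0.05. Across all genes tested, 6 (0.0411%) had Ct above ECH above HF with no overlap: Hps3, Plekhb1, Eml6, Zzef1, Fam101b and Adrb1. The reverse order, Ct below ECH below HF with no overlap, was found for 9 genes (0.0616%), with 0 members among them. In whole sorted populations, fewer cells that express a gene and less RNA of it per cell cannot be told apart.

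The 250 bases before the Adrb1 start annotated by RefSeq (GRCm38.p6, chr19:56721867-56722116, plus strand) are shown because Adrb1 is the member that passed the test, and those of Rgs2 (chr1:144004150-144004399, minus strand) because Rgs2 is a known cAMP-induced gene of the set. Capitals mark the letters TGACG, the short form of the cAMP response element, or CGTCA, the same letters on the other strand. Both are written 5′ to 3′ on the gene's strand and end at the base before the start.
Adrb1 upstream: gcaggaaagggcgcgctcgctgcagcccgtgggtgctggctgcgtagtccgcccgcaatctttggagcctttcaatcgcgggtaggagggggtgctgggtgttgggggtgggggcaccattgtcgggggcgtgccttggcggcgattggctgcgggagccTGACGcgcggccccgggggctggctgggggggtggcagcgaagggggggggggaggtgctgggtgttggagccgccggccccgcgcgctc
Rgs2 upstream: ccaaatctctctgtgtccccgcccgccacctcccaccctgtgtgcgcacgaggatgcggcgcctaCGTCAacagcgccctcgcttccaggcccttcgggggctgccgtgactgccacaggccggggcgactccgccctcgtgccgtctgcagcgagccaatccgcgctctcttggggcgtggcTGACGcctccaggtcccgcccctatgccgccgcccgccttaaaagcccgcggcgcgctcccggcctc
The Adrb1 window holds the letters once, from 90 to 86 bases before the start. The Rgs2 window holds them at 185 to 181 and at 67 to 63 bases before the start. RefSeq windows were held for 6 of the 9 members (12 windows), of which 8 windows, from all 6 members, had the short form, and 0 had the full element TGACGTCA. Of the Gnas windows 2 overlap and hold the same match, so these windows are not independent. Of 32851 windows of the same length over all genes, 17.8% held the short form and 1.55% the full element. These matches are letters in a window and say nothing of binding.

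The difference in Adrb1 between HF and Ct did not rest on Ct library 2, its highest value. Without that library the log2 change was -1.63 (FDR = 0.0142), and without Ct 2 and HF 1 together it was -1.53 (FDR = 0.0231). The FDR rose above 0.05 without HF library 2 (0.0561) or HF library 3 (0.0521), with the replicate number as a block (log2 -1.95, FDR = 0.0567) and with the inferred run as a covariate (log2 -2.26, FDR = 0.0591). Over all 22 alternatives the log2 change stayed between -2.26 and -1.53 and the FDR lay between 1.27e-07 (DESeq2) and 0.0591. Within the first run ECH 1 and 2 were at log2 -1.51 against Ct (FDR = 0.777), and within the second run HF was at log2 -0.75 against ECH 3 and 4 (FDR = 0.229).

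**Figure D2:**
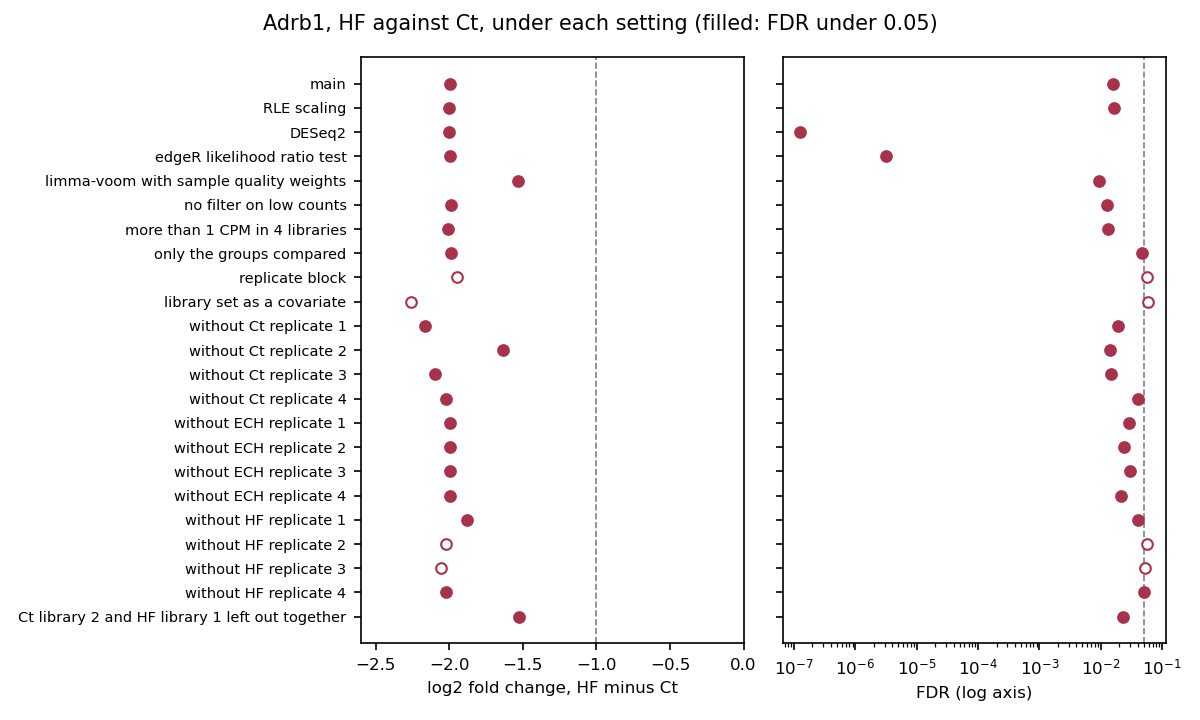
Log2 fold change of Adrb1 between HF and Ct (left, HF minus Ct, dashed line at 2-fold) and its FDR (right, log axis, dashed line at 0.05) under the main setting and each alternative; filled points have an FDR under 0.05. All log2 changes lie between -2.26 and -1.53, while the 4 open points have an FDR above 0.05, the highest at 0.0591.

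Median changes of the marker lists of other cells were negative against Ct in some lists and positive in others. The CD45 beads and the CD11b+ gate select against cardiomyocytes and most lymphocytes, but marker transcripts of these cells were still detected after the sort. Over all genes tested, 48.9% were lower in ECH and 51.2% in HF than in Ct, and 5.89% and 8.72% were lower at an unadjusted p under 0.05. The summed level of 4 B cell markers was 121, 341, 73.0 and 172 CPM in Ct libraries 1 to 4, between 29.9 and 63.0 CPM in ECH and between 40 and 66.0 CPM in HF. Of these 4 markers, 3 were lower in each of ECH and HF than in Ct at an unadjusted p under 0.05, and 0 had an FDR under 0.05. At most 1 of the 4 had 0 counts in any library. The sum of 12 cardiomyocyte markers lay between 118 and 307 CPM in Ct, 105 and 205 in ECH and 84.8 and 140 in HF, with 0 of 12 at an FDR under 0.05 and 4 at an unadjusted p under 0.05 in HF against Ct. Of 6 T and NK cell markers 6 were lower in both, at a median log2 of -1.63 in ECH and -1.36 in HF, with 3 and 1 at an unadjusted p under 0.05. Of 5 neutrophil markers 4 were lower in ECH and 5 in HF, at a median of -1.55 and -0.94, with 2 and 1 at that p. Ct library 2 had the highest Adrb1 level and also the highest sums of B cell, cardiomyocyte, T and NK cell (63.4 CPM) and neutrophil (1455 CPM) markers. Its endothelial (10.1 CPM) and monocyte (237 CPM) sums were the lowest of the 12 libraries. Ct library 4 came next within Ct for Adrb1 (18.6 CPM) and for the B cell (172 CPM) and T and NK cell (35.3 CPM) sums. Every Ct library exceeded every ECH and HF library in the B cell sum, as in Adrb1. The T and NK cell sums overlapped between the groups. Both sums were lowest within Ct in library 3, whereas Ct library 1 had the lowest Adrb1 level of Ct (12.3 CPM), at a cardiomyocyte sum of 242 CPM. HF library 4 had a neutrophil sum of 1088 CPM at an Adrb1 level of 5.25 CPM. Other lists had a positive median: fibroblast genes at log2 1.19 in ECH and 0.67 in HF, monocyte genes at 0.73 and 0.43, dendritic cell genes at 0.34 and 0.64 and endothelial genes at 0.52 and 0.02, each with 0 genes at an FDR under 0.05. Of the 12 Mφ markers 0 had an FDR under 0.05. At an unadjusted p under 0.05, 2 were higher in ECH than in Ct (Mertk at log2 1.43 and Itgam at 0.92) and 3 in HF. Cx3cr1 lay between 23.9 and 221 CPM in ECH and between 161 and 236 in Ct. All 11 genes of a tissue dissociation response list were lower in ECH and in HF than in Ct, 6 of them at an unadjusted p under 0.05 and 0 at an FDR under 0.05. Their sum lay between 40754 and 53704 CPM in Ct, 18383 and 41739 in ECH and 20123 and 34496 in HF. The part of these other cells, of differences among the Mφ and of handling in the Adrb1 difference was not tested.

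**Figure D3:**
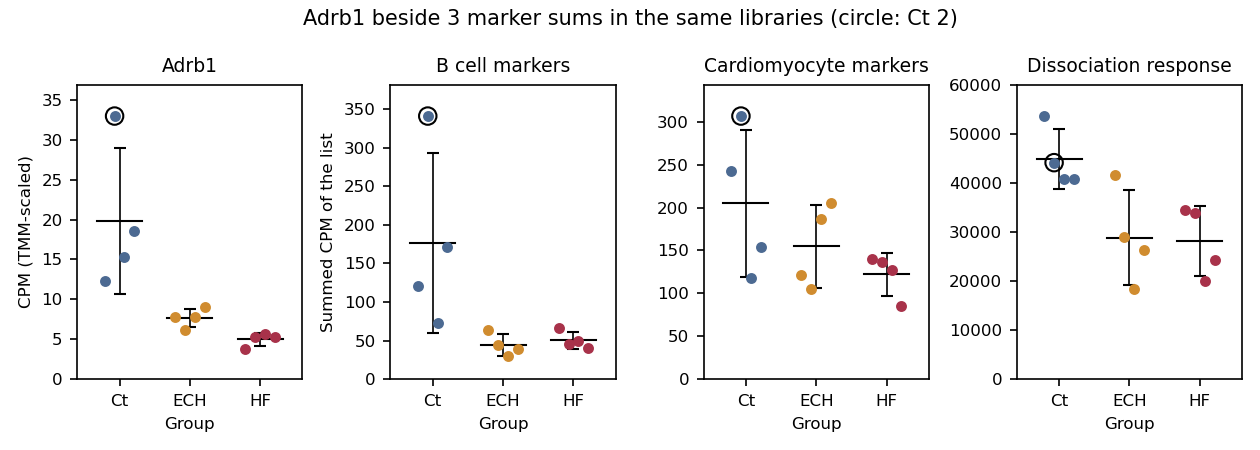
Adrb1 level (first panel, CPM) beside the summed CPM of B cell, cardiomyocyte and dissociation response genes in the same 12 libraries, by group, with the mean as a bar and 1 SD as an error bar; the open circle marks Ct library 2. Ct 2 is highest for Adrb1 (33.0), B cell (341) and cardiomyocyte (307) genes but not for the dissociation response, where Ct 1 is highest at 53704.

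Values of 7 adrenergic receptor genes outside the members are given for scale. Adrb3, the β3 receptor of fat tissue, had 0 counts in all 12 libraries, which allows at most 0.0259 to 0.0349 CPM per library (3 counts). The 6 α-adrenergic receptor genes among them fell under the filter on low counts, with at most 59 counts in a library.

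The desensitization genes did not pass the test in any comparison. Adrbk1, now named Grk2, encodes the kinase that phosphorylates agonist-occupied β receptors and lies on the minus strand at chr19:4286001-4306222. Its libraries were at 304, 226, 264 and 292 CPM in Ct, 241, 264, 244 and 232 in ECH and 208, 264, 200 and 234 in HF. The ranges overlapped, with the mean lowest in HF (226 ± 29.0 CPM, against 271 ± 34.7 in Ct). The difference was log2 -0.26 ± 0.13 for HF against Ct (FDR = 0.345) and -0.14 ± 0.13 for ECH against Ct (FDR = 0.711).

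Arrb1 and Arrb2 encode the β-arrestins, which bind the phosphorylated receptor. Arrb1 (chr7:99535466-99606771, plus strand) was at 57.2, 79.0, 81.1 and 86.7 CPM in Ct, 61.3, 74.6, 52.2 and 46.0 in ECH and 68.4, 53.1, 66.3 and 74.8 in HF. The ranges overlapped, and ECH against Ct gave log2 -0.38 ± 0.18 (FDR = 0.431). Arrb2 (chr11:70432635-70440828, plus strand) was at 249, 216, 280 and 221 CPM in Ct, 202, 261, 238 and 245 in ECH and 182, 257, 169 and 248 in HF. HF held both high and low Arrb2 libraries, and its SD of 44.9 CPM was larger than the difference of its mean from Ct (214 against 241 CPM, log2 -0.17 ± 0.16, FDR = 0.649). Arrb2 was the main arrestin transcript throughout: Arrb1 made up 7.50% ± 1.62 of both per length in Ct, 5.95% ± 1.23 in ECH and 7.47% ± 1.86 in HF (SD, n = 4). This share depends on the exon unions used, 11175 bases for Arrb1 and 2845 for Arrb2. In CPM with no division by length, the Ct means were closer, at 76.0 for Arrb1 and 241 for Arrb2.

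**Figure D4:**
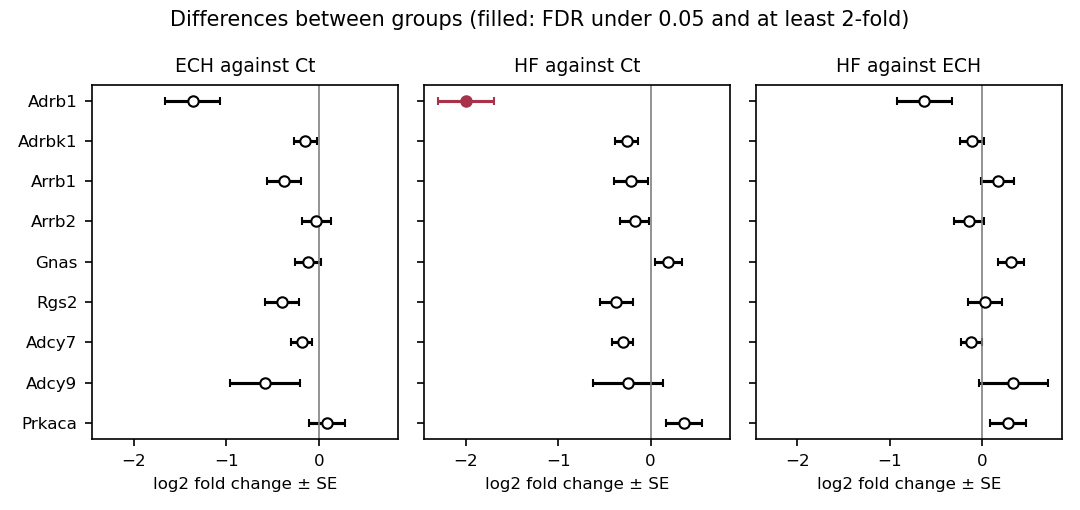
Log2 fold change (horizontal axis, first group minus second) of the 9 genes in each comparison, with 1 SE of edgeR's quasi-likelihood fit as error bars; the filled point has an FDR under 0.05 and a change of at least 2-fold. Adrb1 in HF against Ct (-1.99) is the filled point, and the other 8 genes lie between -0.58 and 0.36 in all 3 comparisons.

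Among the members, Gnas was the one whose HF libraries all lay above the ECH libraries, as those of the G protein genes Gnai2 and Gng5, which are not members, did too. The gene lies on the plus strand at chr2:174284320-174346744 and overlaps Nespas and Gm20721 on the other strand. Whether the counting used strand is not stated, so reads of those genes cannot be told apart from Gnas. Its libraries were at 290, 221, 299 and 313 CPM in Ct, 281, 301, 245 and 208 in ECH and 323, 301, 333 and 324 in HF. The lowest HF library (301.413 CPM) only just exceeded the highest ECH library (301.389 CPM), and ECH 1 and 2 were above ECH 3 and 4. HF against ECH gave log2 0.31 ± 0.14, an unadjusted p of 0.0498 and an FDR of 0.625. Within the second run, with ECH 3 and 4 only, the difference was log2 0.50 (FDR = 0.0402), under 2-fold, and over all alternatives the FDR lay between 0.0402 and 1.

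Rgs2, a regulator of G protein signalling that is induced by cAMP, had the highest level of the 9 per kb of all annotated exons. It lies on the minus strand at chr1:143999338-144004161. It was at 508, 536, 295 and 405 CPM in Ct, 324, 387, 323 and 290 in ECH and 404, 326, 297 and 322 in HF. Ct libraries 1, 2 and 4 exceeded all ECH and HF libraries, while Ct library 3 lay among the lowest. ECH against Ct gave log2 -0.40 ± 0.18 (FDR = 0.406) and HF against Ct -0.37 ± 0.18 (FDR = 0.337).

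Both adenylyl cyclases among the members had their highest mean in Ct. Adcy7 (chr8:88272403-88329962, plus strand), a cyclase of blood and immune cells, was at 321, 321, 313 and 396 CPM in Ct, 273, 305, 317 and 295 in ECH and 287, 256, 266 and 286 in HF. All HF libraries were below all Ct libraries, and ECH overlapped both. The means were 338 ± 38.8, 298 ± 18.3 and 274 ± 15.3 CPM. HF against Ct gave log2 -0.30 ± 0.11 with an unadjusted p of 0.0195, but an FDR of 0.231, and over all alternatives the FDR lay between 0.0811 and 0.396.

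Adcy9 (chr16:4287529-4420498, minus strand) encodes a widely expressed cyclase and had the largest spread within a group, with an SD of 62.5% of the mean in HF. It was at 17, 19.4, 10.9 and 23.1 CPM in Ct, 11.4, 8.18, 11.9 and 15.6 in ECH and 28.5, 10.7, 7.92 and 12.4 in HF. HF library 1 was the highest of all 12, and the other 3 HF libraries lay within the range of ECH or just below it. Without HF library 1 the difference of HF from Ct moved from log2 -0.24 ± 0.37 (FDR = 0.801) to -0.77 (FDR = 0.287), and that from ECH turned from 0.34 (FDR = 0.910) to -0.19 (FDR = 0.997).

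Prkaca, a catalytic subunit of PKA, lies on the plus strand at chr8:83972993-83996443. It was at 43.1, 28.4, 38.1 and 54.4 CPM in Ct, 48.9, 49.9, 38.8 and 36.7 in ECH and 59.9, 46.4, 56.1 and 48.5 in HF. The groups overlapped, and HF had the highest mean (52.7 ± 6.38 CPM, against 41.0 ± 10.8 in Ct). HF against Ct gave log2 0.36 ± 0.19 (FDR = 0.378), and ECH 3 and 4 were below ECH 1 and 2.

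Counted together, 0 of 9 members were called at an FDR under 0.05 and at least 2-fold in ECH against Ct, 1 (Adrb1, lower) in HF against Ct and 0 in HF against ECH. Of all genes tested 0.356%, 0.377% and 0% were called in these comparisons, and 0.110% were called lower in HF than in Ct. At an unadjusted p under 0.05 there were 2 members in ECH against Ct (Adrb1 and Rgs2), 2 in HF against Ct (Adrb1 and Adcy7) and 1 in HF against ECH (Gnas), where 11.9%, 16.1% and 7.98% of all genes passed. The groups did not overlap for 1 member in ECH against Ct (Adrb1), 2 in HF against Ct (Adrb1 and Adcy7) and 2 in HF against ECH (Adrb1 and Gnas), against 7.97%, 9.04% and 6.92% of all genes. The estimate was lower than in Ct for 8 of 9 members in ECH (Prkaca was the exception) and for 7 of 9 in HF, where 48.9% and 51.2% of all genes were lower. The members' median log2 change was -0.18 in ECH against Ct, -0.24 in HF against Ct and 0.03 in HF against ECH, and that of all genes was 0.010, -0.015 and -0.018. The comparisons against Ct share their 4 control libraries, so their counts are not independent. The members were chosen with earlier results of these data known, so these counts beside the shares of all genes are no test of the set.

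Of 77 further genes of the pathway, 63 were tested, in 8 lists. At an FDR under 0.05 the main fit had 1 in ECH against Ct and 0 in both other comparisons. In that fit 0.472%, 0.513% and 0% of all genes passed. The 1 gene was Arrdc4, an arrestin-domain protein counted here with receptor trafficking. It was at 54.1, 38.3, 67.8 and 50.9 CPM in Ct, 79.8, 95.2, 123 and 117 in ECH and 66.1, 76.5, 57.7 and 75.1 in HF. All ECH libraries were above all Ct and HF libraries, by 1.96-fold against Ct (log2 0.97 ± 0.19, FDR = 0.0401). ECH 3 and 4 were above ECH 1 and 2. The FDR of Arrdc4 in ECH against Ct was under 0.05 in 9 of 23 alternatives. It lay between 0.000234 and 0.824 over all of them, and reached 0.150 with 1 library left out. At an unadjusted p under 0.05 there were 14 of 63 genes (8 higher, 6 lower) in ECH against Ct, 16 (6 higher, 10 lower) in HF against Ct and 10 (4 higher, 6 lower) in HF against ECH. These are 22.2%, 25.4% and 15.9% of the 63, where 11.9%, 16.1% and 7.98% of all genes passed. The lists were also chosen with earlier results of these data known. Shares above those of all genes, here and in the single lists below, are therefore no test of the pathway. The median log2 change of the 63 genes was -0.03, -0.11 and -0.06, and that of all genes 0.010, -0.015 and -0.018.

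Of the other 4 receptor kinases 0 had an FDR under 0.05, and 4 had a lower estimate in HF than in Ct, at a median of log2 -0.69, where 51.2% of all genes were lower and the median of all genes was -0.015. Adrbk2, or Grk3, the closest relative of Adrbk1, was at 49.0, 56.7, 35.2 and 50.7 CPM in Ct, 26.9, 32.7, 32.5 and 33.0 in ECH and 24.9, 28.4, 32.1 and 22.7 in HF. All ECH and all HF libraries were below all Ct libraries, at log2 -0.62 ± 0.17 (FDR = 0.157) and -0.83 ± 0.17 (FDR = 0.0559). Grk6, the kinase of this list with the highest level per length, had log2 -0.29 ± 0.18 in HF against Ct (FDR = 0.441).

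Of the other adenylyl cyclases 3 of 8 were tested, and Adcy3 had the highest level. It was at 10.6, 2.90, 2.56 and 9.67 CPM in Ct, 24.3, 24.9, 12.4 and 13.7 in ECH and 24.3, 26, 19.7 and 23.4 in HF. All ECH and HF libraries were above all Ct libraries, and ECH 1 and 2 were above ECH 3 and 4. The differences were log2 1.55 ± 0.44 for ECH (FDR = 0.158) and 1.86 ± 0.44 for HF (FDR = 0.0886).

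Among the PKA subunits and inhibitors, 5 of 8 were higher and 3 lower in HF than in Ct. Prkar1a, a regulatory subunit that holds the catalytic subunits inactive, was at 308, 322, 357 and 313 CPM in Ct, 442, 418, 384 and 343 in ECH and 425, 470, 443 and 441 in HF. HF lay above Ct with no overlap, at log2 0.45 ± 0.11 (FDR = 0.10). In the G protein list Gng2 had log2 0.39 ± 0.13 in ECH against Ct (FDR = 0.224), and Gnai2, an inhibitory α subunit, log2 0.19 ± 0.12 in HF against Ct (FDR = 0.456).

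Of 10 genes that cAMP is known to induce, 8 were lower in ECH and 7 in HF than in Ct, 3 and 5 of them at an unadjusted p under 0.05 and 0 at an FDR under 0.05. Of all genes 48.9% and 51.2% were lower, 5.89% and 8.72% at that p. Sik1, a kinase induced through CREB, was at 55.7, 37.9, 36.2 and 46.0 CPM in Ct, 33.3, 23.2, 66.7 and 69.0 in ECH and 17.9, 17.6, 14.3 and 23.8 in HF. The HF libraries were below all Ct libraries (log2 -1.26 ± 0.31, FDR = 0.103), and the ECH libraries lay in 2 pairs, with ECH 3 and 4 above all Ct and HF libraries and ECH 1 and 2 below all Ct libraries. HF against ECH gave log2 -1.39 ± 0.32 (FDR = 0.491), with overlapping libraries. Sik1 was called in 4 of 22 alternatives in HF against Ct (lowest FDR 0.00557) and in 4 of 23 in HF against ECH (lowest FDR 0.00177). Nr4a1, a nuclear receptor and the highest of the list per length, was at 670, 506, 711 and 319 CPM in Ct, 394, 395, 112 and 174 in ECH and 222, 396, 280 and 311 in HF. ECH against Ct gave log2 -1.04 ± 0.37 (FDR = 0.283) and HF against Ct -0.87 ± 0.37 (FDR = 0.281), with overlapping libraries. Several genes of this list are also induced by handling of tissue, and the lower sums of the dissociation response in ECH and HF were given above.

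**Figure D5:**
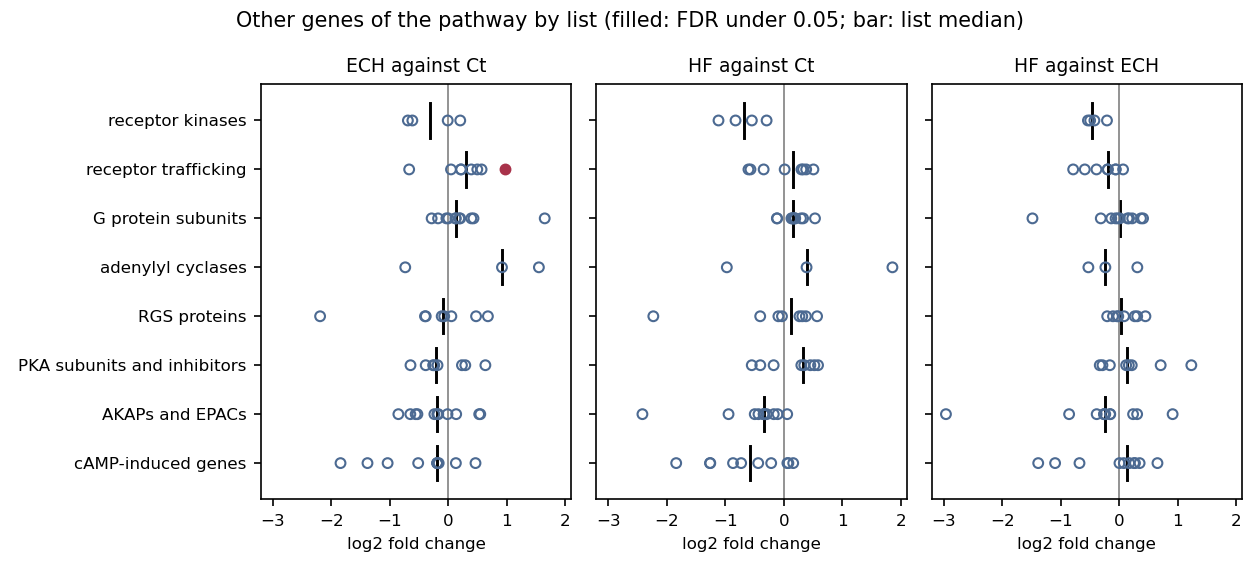
Log2 fold change (horizontal axis, first group minus second) of the 63 tested genes of the 8 pathway lists, 1 point per gene, in each comparison; the black bar is the list's median and the filled point has an FDR under 0.05. The filled point is Arrdc4 in ECH against Ct (0.97), and the receptor kinase median lies at -0.69 in HF against Ct.

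The other named genes did not pass the test. Slc9a3r1, a scaffold for membrane receptors in the trafficking list, gave log2 0.49 ± 0.13 in ECH against Ct (FDR = 0.137). Rgs18 gave log2 0.45 ± 0.16 in HF against ECH (FDR = 0.556), and Rgs10 log2 -0.40 ± 0.23 in ECH against Ct (FDR = 0.544). Akap13, an anchoring protein for PKA, gave log2 -0.50 ± 0.16 in HF against Ct (FDR = 0.172), and Akap8 -0.17 ± 0.12 (FDR = 0.508).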

How the data were processed

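Total RNA of sorted cardiac Mφ from 12 mice was made into cDNA with the SMART-Seq v4 kit and sequenced from both ends. The submitters' processing notes name FastQC, Trimmomatic, TopHat2, featureCounts, edgeR and the build mm10. The values are raw counts per gene symbol as deposited by the authors, without normalization, and the annotation, tool versions and strand setting are not stated in the sources used here. Groups came from the labels' treatment. They were filtered with filterByExpr, scaled by TMM and fitted with edgeR 4.0.16 (R 4.3.3), in 1 quasi-likelihood model of all 12 libraries with 3 contrasts. The FDR is the p value after Benjamini-Hochberg adjustment over 14608 genes, and a call needed an FDR under 0.05 and a change of at least 2-fold. SE is the log2 change divided by the root of its F statistic. The biological coefficient of variation from the common dispersion over all genes was 60.8%. Alternatives used RLE scaling, DESeq2 1.42.0, edgeR's likelihood ratio test, limma-voom (limma 3.58.1) with quality weights, other filters, other sets of libraries and other thresholds. The fit without Ct 2 and HF 1 was chosen after seeing the data.

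Lengths were unions of GENCODE M21 exons, for 24080 of 24445 symbols. Beside the members, genes are named when they are Adrb3, have an FDR under 0.05 in a pathway list, or have the lowest p or highest level per length of a list, and the 2 genes most correlated with each member are named. The genes with Ct above ECH above HF, and Gng5, were named after their values were seen. Some genes are not reported here. The members and lists were chosen with earlier results of these data known. Each library came from 1 mouse. The library without molecular identifiers gives limits that cover counting error only. The code was tested on simulated data. Figures were drawn with matplotlib 3.10.9 in Python 3.11.15.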

Additional observations from a re-analysis of the deposited data

Results flagged for a closer look

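In 4 of 69 groups of 4 libraries, a single library lay far from the other 3 by Dixon's criterion, where chance flags about 1 in 20 groups. Adcy7 in Ct library 4 was at 396 CPM, with the next library at 321 CPM. Without Ct 4 the difference of HF from Ct in Adcy7 was log2 -0.22 (FDR = 0.378), against -0.30 (FDR = 0.231) with it. Adrbk2 in ECH library 1 was at 26.9 CPM, with the next at 32.5 CPM. Slc9a3r1 in HF library 1, a library with few genes detected, was at 93.3 CPM, with the next at 120 CPM. Akap8 in HF library 2 was at 102 CPM, with the next at 110.0 CPM.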

How the results depend on the processing

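Called members stayed at 0 in ECH against Ct except with DESeq2, the likelihood ratio test or voom (1 each, Adrb1) and at an unadjusted p alone (2). In HF against Ct the count of 1 became 0 with the replicate block or the library run as a covariate and 2 at p alone, and lay between 0 and 1 with a library left out. In HF against ECH it was 1 at p alone. Calls over all genes ranged from 1 to 248 in ECH against Ct, from 15 to 339 in HF against Ct and from 0 to 370 in HF against ECH. In HF against ECH they were 0 in the main fit, 272 with the library run as a covariate and 370 within the second run. Some named pathway genes had an FDR under 0.05 in some alternatives. Of 23 in ECH against Ct, Arrdc4 had 9, Adcy3 and Slc9a3r1 2 each and Adrbk2 1. Of 23 in HF against ECH, Sik1 had 4, Grk6 2, and Arrdc4 and Adcy3 1 each. Of 22 in HF against Ct, Adrbk2 had 5, Sik1 4, Prkar1a 3, Adcy3 2, and Grk6 and Akap13 1 each. Replicate numbers did not pair the mice (12 correlations of deviations, from -0.0701 to 0.0687), and the replicate block moved calls over all genes from 52 to 22 in ECH and from 55 to 18 in HF against Ct.

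The log2 changes that turned sign belonged to genes that were not called. With the library run as a covariate they were, in ECH against Ct, Gnas 0.0523, Grk6 -0.166, Gnai2 0.0819 and Sik1 -0.638, and in HF against Ct, Arrb1 0.258, Arrdc4 -0.0695, Rgs10 0.432 and Nr4a1 0.598. Within the first run they were Gnas 0.0433, Grk6 -0.174, Gnai2 0.0738 and Sik1 -0.646 in ECH against Ct. With voom they were Prkaca -0.0111, Gnai2 0.0294 and Sik1 -0.199 in ECH against Ct, and Adcy9 -0.0723 and Rgs2 -0.0636 in HF against ECH. Without Ct 2 and HF 1 they were Prkaca -0.0629 in ECH against Ct, Rgs10 0.0357 in HF against Ct, and Adcy9 -0.187 and Rgs2 -0.0662 in HF against ECH.

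With 1 library left out, log2 changes that crossed 0 ranged in ECH against Ct from -0.0770 to 0.0524 for Arrb2, -0.0517 to 0.256 for Prkaca, -0.0804 to 0.0250 for Gnai2, -0.0829 to 0.0705 for Akap8 and -0.0968 to 0.359 for Sik1. In HF against Ct Rgs10 ranged from -0.225 to 0.177. In HF against ECH they ranged from -0.191 to 0.557 for Adcy9, -0.0695 to 0.112 for Rgs2 and -0.0863 to 0.417 for Nr4a1. The cause was not tested. The biological coefficient of variation of 60.8% comes from 1 common dispersion over all genes and is not the spread of each gene. Within groups, the SD of members lay between 4.23% (Gnas in HF) and 62.5% (Adcy9 in HF) of the mean. With 4 mice per group, each gene's own spread limits what could be detected.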

Other observations

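The genes whose log2 CPM followed each member most closely over the 12 libraries are given as a description, since the points share libraries and depth. Each was picked for the highest r among the 14608 genes tested, so a high r here is no test of a link. For Adrb1 they were Olfr1033 (Pearson r = 0.935) and Herc2 (r = 0.934). Herc2, a ubiquitin ligase, averaged 50.9 ± 7.33 CPM in Ct, 34.6 ± 1.91 in ECH and 29.2 ± 4.57 in HF (SD, n = 4). Olfr1033 was low, at 5.07 ± 0.762, 2.52 ± 0.376 and 1.99 ± 0.287 CPM. For Gnas they were Aamp (0.961) and Cyth4 (0.954), and for Prkaca Akr1b10 (0.960) and Gm16386 (0.934). Adcy7 had Myo9a (0.945) and Ccdc82 (0.880), and Adcy9 had Las1l (0.894) and Brdt (0.892). Adrbk1 had Inppl1 (0.915) and Zufsp (0.895), Arrb1 had Scn4a (0.895) and Tmco6 (0.877), and Arrb2 had Utp20 (0.934) and Msl2 (0.884). Rgs2 had Pogk (0.905) and Adamts13 (0.888). Scn4a, Gm16386 and Brdt were also low, with a highest group mean of 1.14, 2.54 and 1.97 CPM, and Scn4a had 0 counts in some libraries.

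The 5 other genes with Ct above ECH above HF and no overlap covered a wide range of levels. Hps3, a gene of lysosome-related organelles, fell in narrow steps, from 142 ± 4.08 CPM in Ct to 131 ± 2.18 in ECH and 120 ± 2.18 in HF. Zzef1 averaged 45.8 ± 6.45, 28.4 ± 2.96 and 19.8 ± 7.95 CPM. Eml6, Fam101b and Plekhb1 were low, at 5.50 ± 0.318, 4.82 ± 0.725 and 0.592 ± 0.307 CPM in Ct. Plekhb1 had 0 counts in all 4 HF libraries.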
